A study of Rattus norvegicus with 8 samples.

Results

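The genes described here break down, receive or pass on the second messenger cAMP in thymocytes, the developing T cells that fill the thymus. They are 6 cAMP phosphodiesterase genes (Pde3b, Pde4a, Pde4b, Pde4d, Pde7a and Pde8a), 3 genes of protein kinase A (Prkaca, Prkar1a and Prkar2a) and the transcription factor gene Creb1. The genes were chosen with earlier results of these data known. All probes that carry one of their names on the array were taken, whatever their values, which gave 14 probes of 41012 and 10 of 35561 gene names. RNA was measured on 8 one-color Agilent arrays of 60-base probes, 4 labelled Control and 4 labelled Dex. Both groups were primary thymocytes of adrenalectomized male Sprague-Dawley rats, taken from thymi pooled from 3 animals and held in culture for 6 hours. Dex cells received 100 nM of the synthetic glucocorticoid dexamethasone and Control cells did not. The age of the animals was not given in the sources used here. The sources state 3 biological replicates, but 4 arrays per group were deposited and all were used. The labels do not say which replicates came from separate pools, so p-values measure the spread between these arrays, which may in part be technical. Whole thymus suspensions hold several thymocyte stages and other cells, and in such samples fewer cells of a type and less RNA per cell cannot be told apart.

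Adenylyl cyclases make cAMP when receptors that couple to Gs are engaged, and phosphodiesterases hydrolyze it. When cAMP binds the regulatory subunits of protein kinase A, the catalytic subunits become active and can phosphorylate CREB, which then drives genes with cAMP response elements in their promoters. Anchoring proteins (AKAPs) hold the kinase, and often a phosphodiesterase, at particular places in the cell. In lymphocytes cAMP is known to restrain antigen receptor signaling, and raised cAMP can kill thymocytes, as glucocorticoids do.

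The probes that the results turn on read 5′ to 3′ as follows, with capitals for the codons of the metal-binding histidine and aspartate stretch of the catalytic domain in Pde4d and of the Asp-Phe-Gly motif of the kinase domain in Prkaca. Only the first 30 bases are given for Pde4a, because the files do not say which region of the transcript its probe lies in. The probe of Prkaca is shown because it lies in the catalytic site itself, and those of Prkar1a because 2 separate stretches of its coding sequence gave the same result.
Pde4a A_44_P228932: cagagctcaagctgtggactggtcaaaggt
Pde4b A_44_P258949: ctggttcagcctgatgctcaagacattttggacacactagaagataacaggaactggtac
Pde4d A_44_P683068: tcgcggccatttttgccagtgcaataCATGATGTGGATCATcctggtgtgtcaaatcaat
Prkar1a A_44_P399992: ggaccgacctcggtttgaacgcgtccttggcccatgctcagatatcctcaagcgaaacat
Prkar1a A_44_P301695: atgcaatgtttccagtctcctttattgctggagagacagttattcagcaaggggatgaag
Prkaca A_44_P330332: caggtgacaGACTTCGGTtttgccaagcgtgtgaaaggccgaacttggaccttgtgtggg

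The scanner output places these probes in rat build rn3. The Pde4a probe lies on the plus strand of chromosome 8 at chr8:20240912-20240971 and the Pde4b probe on the plus strand at chr5:123538331-123538390. The Prkaca probe spans chr19:25852087-25852229 on the minus strand, which is longer than the probe. The Prkar1a probes were placed on the minus strand of chromosome X, at chrX:148715863-148715922 and chrX:148716461-148716520, whereas RefSeq's table for the later build GRCr8 has Prkar1a on chromosome 10. Of the 14 probes, 11 carry a transcript accession that the GRCr8 table holds, and each of these has there the gene symbol that the array gives. Aligned without gaps at their best offset, the Pde4a and Pde4b probes shared 22 bases, as did the Pde4b probe and the Pde4d probe printed above. Whether any probe also binds the RNA of another gene was not tested.

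Pde4a and Prkar1a were higher in Dex than in Control and Pde4b was lower, by between 1.60-fold and 2.63-fold. The size for Pde4a, the largest, depended on the background correction. With normexp the log2 fold changes were 0.45 for Pde4a, 0.71 for Prkar1a and -0.46 for Pde4b. Pde4a, one of the cAMP-specific phosphodiesterases that the drug rolipram inhibits, was the single gene of the 10 that passed the test across all probes, and it did not pass once the replicate number was a block. Prkar1a, the type I regulatory subunit that holds the kinase inactive until cAMP binds, missed that threshold although its groups stood far apart. The other genes had Dex and Control arrays that overlapped, apart from 1 of the 3 probes of Pde4d.

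Over the 14 probes, limma called 1 higher and 0 lower at a Benjamini-Hochberg adjusted p under 0.05, and 0 of either kind with the replicate block. Of all probes limma called 0.778%, with 0.563% higher and 0.215% lower. At an unadjusted p under 0.05 limma found 5 of the 14, 4 of them higher and 1 lower, against 10.6% of all probes. The signal to noise statistic that the study's methods define, with p taken here from all assignments of the arrays, called the same 5, against 6.79% of all probes. Dex and Control arrays did not overlap on these 5 probes, and did not overlap on 9.1% of all probes. These are 1 probe of Pde4a, 1 of Pde4b, 1 of Pde4d and both of Prkar1a, so they stand for 4 genes. By its brightest probe, 9 genes had a higher and 1 a lower mean in Dex, and the median of their log2 fold changes was 0.33, against 49.95% of all gene names higher and a median of -0.00051 over them. The median of the 10 genes was 0.17 with normexp, and 0.098 with the slide as a fixed block, where Pde3b, Pde7a, Prkaca and Creb1 were below 0. Without Pde8a, which was hardly above background, 8 were higher and 1 lower, with a median of 0.31.

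**Figure D1:**
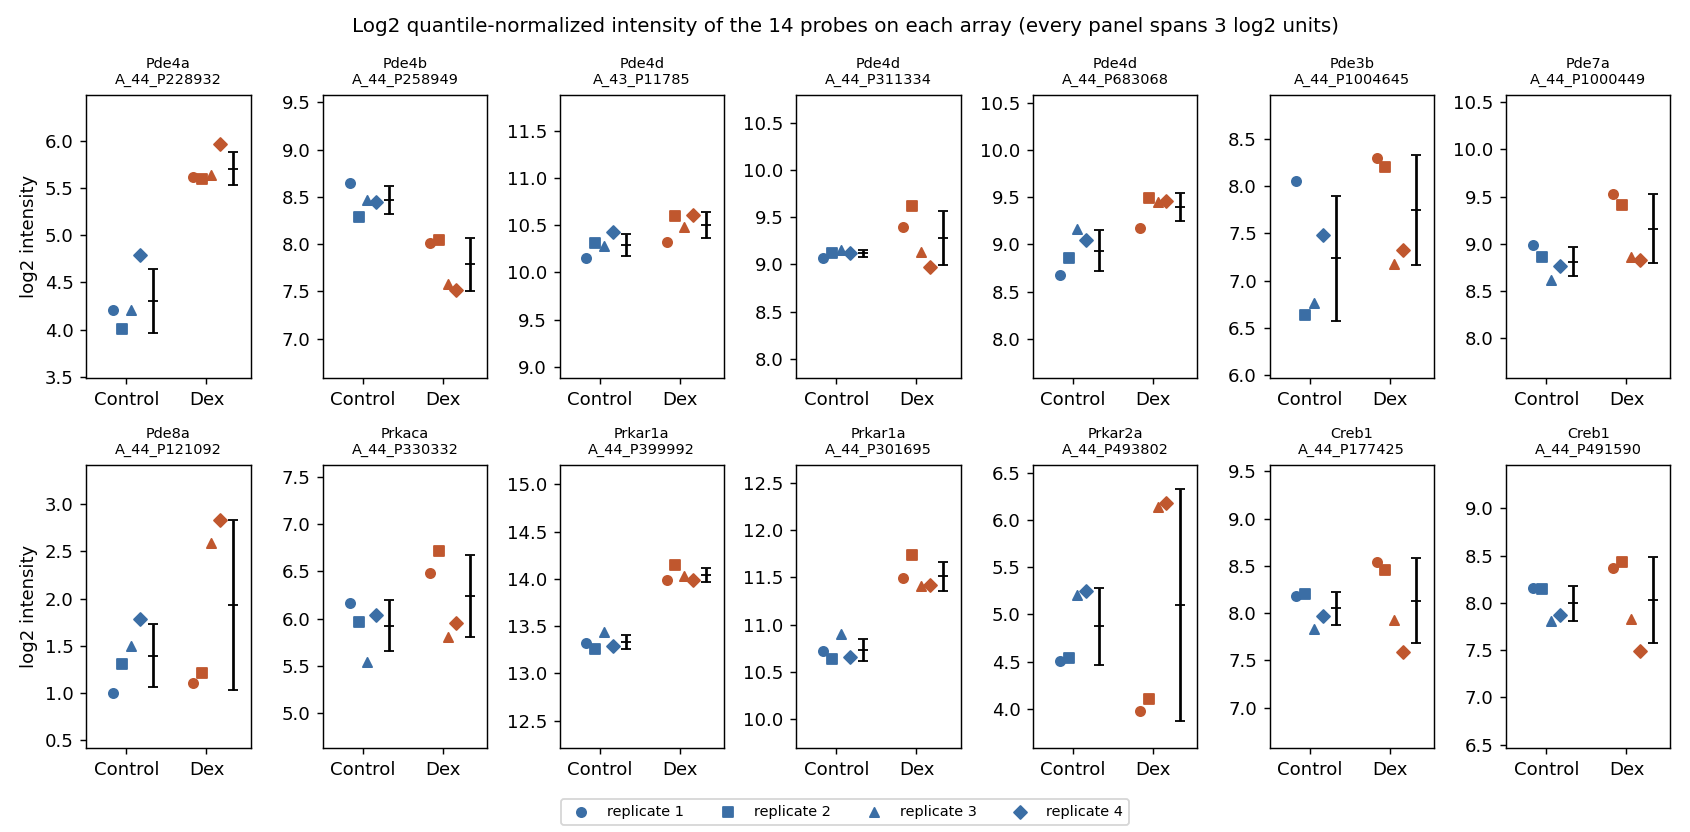
Each panel shows 1 probe, with its log2 quantile-normalized intensity on the y axis for the 4 Control arrays (blue) and 4 Dex arrays (orange), the marker shape giving the replicate number and the black bar the mean and SD. Panels span the same number of log2 units at different levels. The groups are apart for Pde4a, Pde4b, both Prkar1a probes and Pde4d A_44_P683068, and in many other panels Dex 1 and 2 lie away from Dex 3 and 4.

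Pde4a had log2 intensities of 4.21, 4.01, 4.21 and 4.79 on Control arrays 1 to 4, and 5.61, 5.60, 5.63 and 5.96 on Dex arrays 1 to 4. Every Dex array was above every Control array, and the lowest Dex value was that of Dex 2 and the highest Control value that of Control 4. The mean rose from 4.31 ± 0.34 (SD, n = 4) to 5.70 ± 0.17 (SD, n = 4), a log2 fold change of 1.40 (SE 0.21, 95% confidence interval 0.92 to 1.87) and a 2.63-fold rise. limma gave an adjusted p of 0.0275, and the probe was 196th of all probes by p. An exact two-sided permutation test over the 70 assignments of the arrays gave p = 0.0286, the smallest that 4 arrays against 4 allow. Here and below this test takes the arrays as unpaired, without the replicate numbers. All 8 arrays had the probe well above background. Same-numbered arrays differed by 1.40, 1.59, 1.42 and 1.17, all positive as they must be where the groups do not overlap.
The adjusted p was 0.0778 with the replicate number as a block and 0.394 after scaling to the 75th percentile. It also missed the threshold, at 0.0605 to 0.117, without any 1 of the arrays Control 1, 2 and 3 and Dex 1, 2, 3 and 4. With background correction by normexp the log2 fold change was 0.45, at an adjusted p of 0.0059. The slide as a fixed block rests on the only slide that held both groups. There the log2 fold change was 1.42 and was not called.

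Pde4b belongs to the same subfamily and is known as the form that T cell receptor and inflammatory signals induce in leukocytes. Its log2 intensities were 8.65, 8.29, 8.47 and 8.44 on Control arrays 1 to 4 and 8.01, 8.05, 7.58 and 7.51 on Dex arrays 1 to 4. All Dex arrays were below all Control arrays, with Dex 3 and 4 the lowest. The log2 fold change was -0.68 (SE 0.19, 95% confidence interval -1.10 to -0.25), which makes the level 1.60-fold lower in Dex. This missed the threshold, with limma's adjusted p at 0.211. The exact permutation p was 0.0286, the smallest possible.
Same-numbered arrays differed by -0.64, -0.25, -0.89 and -0.93 for Pde4b, all negative as must follow from groups that do not overlap. The slide as a random block had a correlation of -0.24 and called 1838 of all probes, against 319 as reported. Without the 3 arrays with the fewest probes above background no slide held both groups, and 4671 were called. limma's adjusted p for Pde4b passed in these 2 of 16 alternatives, at 0.0481 and 0.0369. The second was a setting added after the data were seen, and in all others limma's adjusted p did not pass. It was 0.291 with the replicate block, 0.337 after scaling to the 75th percentile, 0.771 with the slide as a fixed block and 0.236 to 0.456 with each array left out.

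Pde4d, the third gene of the subfamily, has 3 probes that differed in size of change. Probe A_44_P683068, from the catalytic domain, had log2 intensities of 8.68, 8.86, 9.16 and 9.04 in Control and 9.17, 9.49, 9.45 and 9.46 in Dex. The groups did not overlap, although Dex 1 lay only just above Control 3. Its log2 fold change was 0.46 (SE 0.17), at an adjusted p of 0.372 by limma and an exact permutation p of 0.0286.
Probe A_43_P11785, of the same transcript record, had 10.15, 10.31, 10.28 and 10.43 in Control and 10.32, 10.60, 10.48 and 10.61 in Dex. Here the groups overlapped through Dex 1, and the log2 fold change was 0.21 (SE 0.15, 95% confidence interval -0.13 to 0.55). Probe A_44_P311334, designed on another Pde4d transcript record, had 9.07, 9.13, 9.15 and 9.12 in Control and 9.40, 9.62, 9.13 and 8.97 in Dex. Dex 1 and 2 were above all Control arrays and Dex 4 was below them all, for a log2 fold change of 0.16 (SE 0.18). All 3 probes thus had a higher mean in Dex, and none passed the test. The rn3 positions of the first and second of these probes are on chromosome 18_random and that of the third on chromosome 2, where GRCr8 has the gene.

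Pde3b, the phosphodiesterase that insulin activates in fat and liver and that cGMP inhibits, had log2 intensities of 8.06, 6.64, 6.77 and 7.49 in Control and 8.30, 8.20, 7.18 and 7.33 in Dex. The arrays of each group spread over more than 1 log2 unit, and Control 1 was among the high arrays. The log2 fold change was 0.51 (SE 0.40, 95% confidence interval -0.40 to 1.43), at limma's adjusted p of 0.722. This log2 fold change was 0.31 without Control 2, 0.33 without Dex 1 and 0.79 without Control 1.
Pde7a, a rolipram-insensitive form known from T cells, had 8.99, 8.87, 8.62 and 8.77 in Control and 9.53, 9.42, 8.87 and 8.83 in Dex. Dex 1 and 2 were above all Control arrays and Dex 3 and 4 were within their range, with a log2 fold change of 0.35 (SE 0.21) and an adjusted p of 0.645. Without Dex 1 the log2 fold change was 0.22.
Pde8a, a form of high affinity for cAMP, was not well above background on any of the 4 Control arrays and on 3 of the 4 Dex arrays, so no fold change is given and the fitted difference of 0.54 (SE 0.43) is not read as one. Its log2 intensities were 1.00 to 1.79 in Control and 1.11, 1.21, 2.59 and 2.83 in Dex, of which Dex 4 alone was well above background.

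Both Prkar1a probes gave the same picture. Probe A_44_P399992 had log2 intensities of 13.32, 13.26, 13.44 and 13.29 on Control arrays 1 to 4 and 13.99, 14.15, 14.03 and 13.99 on Dex arrays 1 to 4. The distance between the groups was several times the spread within either. The mean went from 13.33 ± 0.076 (SD, n = 4) to 14.04 ± 0.078 (SD, n = 4), a log2 fold change of 0.71 (SE 0.13, 95% confidence interval 0.40 to 1.02) or 1.64-fold. limma's adjusted p was 0.0692 and the exact permutation p 0.0286.
Probe A_44_P301695 had 10.72, 10.64, 10.90 and 10.66 in Control and 11.49, 11.74, 11.41 and 11.42 in Dex. These groups were also apart, with a log2 fold change of 0.78 (SE 0.15), 1.72-fold, and an adjusted p of 0.0738. Between same-numbered arrays Dex exceeded Control by 0.51 to 1.10 on both probes, always positive since the groups did not overlap. The 2 probes read the same RNA on the same arrays and are not replicates of each other.
The slide as a random block and the fit without 3 arrays have the limits given for Pde4b. For the brighter probe, limma's adjusted p passed in 4 of 17 alternatives, these among them. It was 0.0248 when dim probes were left out, 0.000864 with normexp, 0.00918 with the slide as a random block and 0.0447 without the 3 arrays with the fewest probes above background. It was 0.605 after scaling to the 75th percentile, 0.223 with the replicate block, 0.771 with the slide as a fixed block and 0.126 to 0.256 with each array left out. The log2 fold change stayed between 0.67 and 0.75 over all settings run.

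Prkaca, the main catalytic subunit of the kinase, had log2 intensities of 6.17, 5.96, 5.54 and 6.03 in Control and 6.49, 6.72, 5.80 and 5.96 in Dex, each the summary of 10 spots on an array. Both Dex 1 and Dex 2 were above all Control arrays, with Dex 3 and 4 among them, with a log2 fold change of 0.31 (SE 0.25, 95% confidence interval -0.27 to 0.89) and an adjusted p of 0.731. This log2 fold change was 0.16 without Dex 2 and 0.18 without Control 3. The SD between the 10 spots of an array was 0.062 to 0.106, against an SD between arrays of 0.27 in Control and 0.43 in Dex.
Prkar2a, a type II regulatory subunit that AKAPs bind, had 4.51, 4.54, 5.21 and 5.25 in Control and 3.98, 4.10, 6.14 and 6.18 in Dex. Dex 1 and 2 were below every Control array and Dex 3 and 4 above every one, so the mean difference of 0.22 (SE 0.57) describes none of the 4 Dex arrays. Dex 1 and 2 were also the arrays on which this probe was not well above background. The sign of the difference changed with scaling to the 75th percentile, where it was -0.10.

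Creb1 had log2 intensities of 8.19, 8.21, 7.84 and 7.97 in Control and 8.55, 8.46, 7.93 and 7.59 in Dex on its brighter probe. The highest of all arrays were Dex 1 and 2 and the lowest was Dex 4. The log2 fold change was 0.082 (SE 0.24, 95% confidence interval -0.48 to 0.64), at an adjusted p of 0.936. The second probe, which overlaps the first on chromosome 9 and was printed 10 times, gave 0.034 (SE 0.24). Both intervals include changes of either sign.

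**Figure D2:**
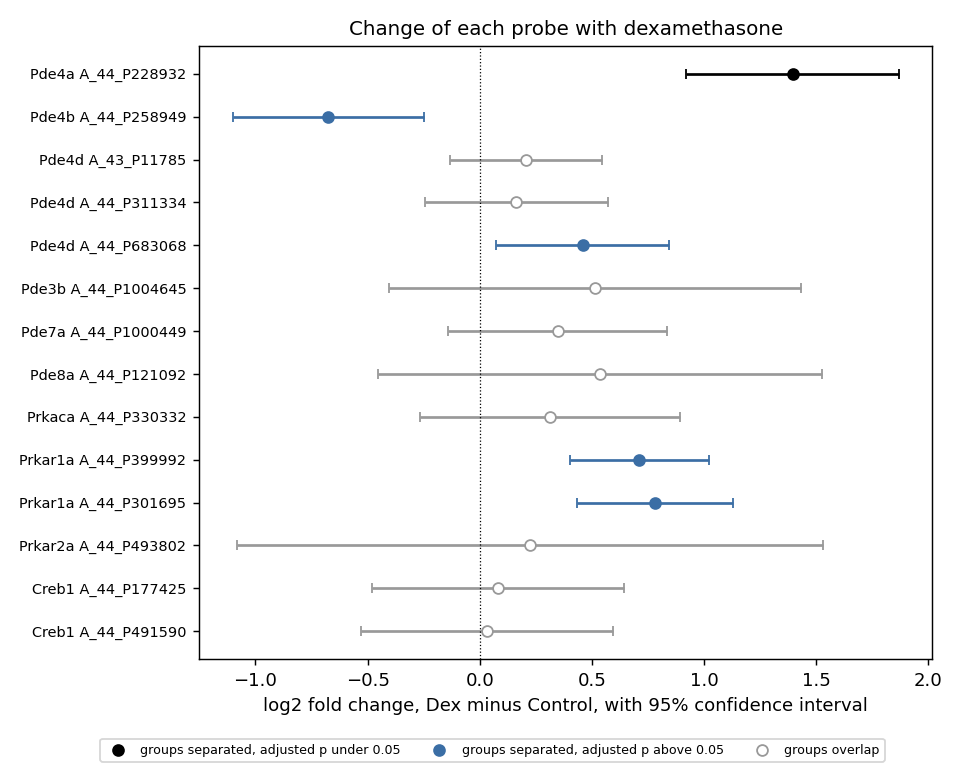
The log2 fold change (Dex minus Control, x axis) of each of the 14 probes with limma's 95% confidence interval, filled where Dex and Control arrays did not overlap and black where the adjusted p passed. Pde4a at 1.40 lies farthest from 0, Pde4b at -0.68 is the one probe below 0, and the intervals of Prkar2a, Pde3b and Pde8a are the widest.

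Replicates 1 and 2 and replicates 3 and 4 of Dex stood apart on most of these probes. Dex 1 and 2 were both above Dex 3 and 4 on 8 of the 14 probes and both below them on 3 (Prkar2a, Pde8a and Pde4a). The same split held for 48.3% and 31.1% of all probes on the array. The arrays with the fewest probes well above background were also Dex 1 and 2, with 26474 and 24911, while Control 1 had 28666 and the other 5 had between 33150 and 34476. Across probes the SD was mostly larger in Dex, with a median of 0.33 for these 14 against 0.18 in Control, and 0.50 against 0.28 over all probes. The part of this split in the results was not tested beyond the settings given.
The arrays lay on 3 slides, of which slide 1 held Control 1 and Dex 3, slide 2 the other Control arrays and slide 3 the other Dex arrays. Within slide 1, Dex 3 minus Control 1 was 1.42 for Pde4a, 0.71 and 0.68 for the Prkar1a probes and -1.07 for Pde4b, a difference of 1 array from 1 with no replicate. It was larger still for Prkar2a, at 1.63, which limma did not call, and 1.59 for Pde8a, which was not well above background on either array. On slides 2 and 3 the slide and the treatment cannot be told apart. On slide 1 the differences were below 0 for Pde3b (-0.88), Prkaca (-0.37), Creb1 (-0.26) and Pde7a (-0.13).

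Other genes of the pathway were taken from 8 lists of 94 genes, of which 85 were on the array. limma called 1 of them higher, 0 lower, and their log2 fold changes had a median of -0.086. Without adjustment 13 of the 85 (15.3%) had p under 0.05, against 10.6% of all probes. By the signal to noise statistic 8 (9.41%) were called, against 6.79% of all probes, of which 3 were higher and 5 lower. The called gene was Akap12, an anchoring protein that binds both protein kinase A and protein kinase C. Its log2 intensities were 7.29, 7.39, 7.39 and 7.97 in Control and 9.27, 9.92, 8.69 and 9.36 in Dex. All Dex arrays were above all Control arrays, and the log2 fold change was 1.80 (SE 0.28), at an adjusted p of 0.0353 by limma and 0.127 with the replicate block. The adjusted p was also above the threshold, at 0.0654 to 0.150, without any 1 array other than Dex 3, and 0.0934 after scaling to the 75th percentile. With the slide as a fixed block the log2 fold change was 1.40 and was not called. A second, dimmer Akap12 probe gave 1.63 (SE 0.43), at an adjusted p of 0.193.

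Of the 16 other phosphodiesterase genes on the array, 7 were well above background on all arrays and 3 on none. None of the 16 was called by limma or by the signal to noise statistic, against 6.79% of all probes by that statistic. An unadjusted p under 0.05 was found for 1, against 10.6% of all probes. This was Pde6c, a phosphodiesterase of cone photoreceptors, with a log2 fold change of -1.06, which was named after its value was seen. Of the 6 other protein kinase A subunit and inhibitor genes limma called 0, with 1 below an unadjusted 0.05, and by the signal to noise statistic 1 was lower, to be read against the same shares.
That gene was Prkar2b, the second type II regulatory subunit. It and the 6 genes in the next sentences were likewise named after their values were seen, since the signal to noise statistic called them and limma did not. Prkar2b had 11.41 to 11.55 in Control and 10.90 to 11.02 in Dex, a log2 fold change of -0.52 (SE 0.13) with an adjusted p of 0.160. Its groups were as tight as those of Prkar1a and lay in the opposite order.

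Of the 15 adenylyl cyclase and G protein alpha subunit genes, which include 3 for inhibitory Gi subunits, 8 were well above background on all arrays. A lower mean in Dex was found for 12 of the 15, with a median log2 fold change of -0.16, and for 50.05% of all gene names. limma called 0 of them, with 3 at an unadjusted p under 0.05, against that same 10.6% of all probes. Adcy6 had 12.37 to 12.83 in Control and 11.46 to 12.11 in Dex, a log2 fold change of -0.70 (SE 0.20) at limma's adjusted p of 0.217. Adcy5 had -0.93 (SE 0.28) at 0.257. Both encode cyclases that calcium inhibits, and on both the groups did not overlap.
Among 10 receptors that couple to Gs, limma called 0, with 1 at an unadjusted p under 0.05. It was Adora2a, the adenosine receptor through which extracellular adenosine raises cAMP in T cells, with a log2 fold change of -1.07 (SE 0.27) and an adjusted p of 0.174. Of the 14 AKAP genes limma called 1, given above, with 2 at an unadjusted p under 0.05, against 10.6% of all probes. By the signal to noise statistic 1 was higher and 1 lower, against 6.79% of all probes. The lower one was Akap10, with -0.46 (SE 0.16) at limma's adjusted p of 0.334.
Of 11 genes known to be induced through CREB, limma called 0, with 5 at an unadjusted p under 0.05, against 10.6% of all probes, and 5 means were higher and 6 lower. Fos, an immediate early gene, had a log2 fold change of 1.26 (SE 0.26) at limma's adjusted p of 0.0955, and the clock gene Per1, which glucocorticoids also induce, had 0.73 (SE 0.22) at 0.270. The other 3 with an unadjusted p under 0.05, also named after their values were seen, were Junb at 0.65 (SE 0.23), Egr1 at -0.78 (SE 0.33) and Pck1 at -1.09 (SE 0.45). The list therefore held genes that went either way. The 8 genes of the CREB family and its coactivators and the 5 other cAMP effectors gave no call by either test and none at an unadjusted p under 0.05. Of the 5 effectors, 2 were well above background on all arrays.

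**Figure D3:**
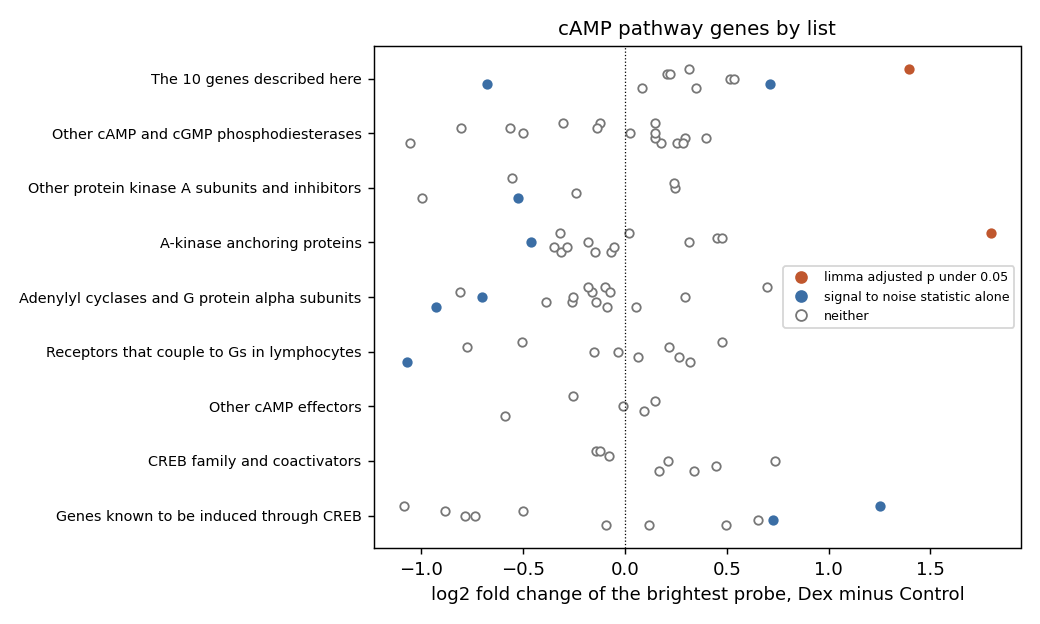
Each point is the log2 fold change (Dex minus Control, x axis) of the brightest probe of 1 gene, by list, orange where limma's adjusted p passed, blue where the signal to noise statistic alone called it, and open otherwise. Pde4a and Akap12 are the orange points, and blue points below 0 include Pde4b, Prkar2b, Adcy5, Adcy6 and Adora2a.

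Genes whose log2 values ran most like those of Pde4a over the 8 arrays, among the brightest probes of 14859 genes, were Prmt6 (Pearson's r 0.996), Trio (0.989), Nrm (0.984), RGD1310800 (0.983) and Chn1 (0.981). All points share the contrast of Dex with Control, which sets much of these correlations, and they are given as a description. The log2 fold changes of the 5 were between 0.41 and 2.02, and limma called Trio and Chn1. Among the other probes of the 10 genes, those of Prkar1a ran most like Pde4a, with r of 0.919 and 0.883, and that of Pde4b least, with -0.858.

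RefSeq promoter windows in build GRCr8, from 250 bases before to 50 after a start, were at hand for 16 starts of 7 of the 10 genes. The cAMP response element TGACGTCA occurred in 0 of the 16 on either strand, against 1.83% of 33469 windows of all genes. Its core TGACG, which is part of the full element, occurred in 7 of the 16, against 21.2% of all windows, in windows of Creb1, Pde4a, Pde4d, Pde8a and Prkaca. The glucocorticoid response element GNACANNNTGTNC occurred in 0 of the 16 and in 0.439% of all windows. For Pde4a 2 of its starts had the core TGACG near the start, on the plus strand at the first and on the minus strand at the second, where the plus strand printed below reads CGTCA. Capitals mark it.
Pde4a, chr8:27966964-27966992 of GRCr8, plus strand: agcgtcggcgcaTGACGttcgtccttagc
Pde4a, chr8:27999383-27999411 of GRCr8, plus strand: ggcacagctcgaCGTCAggctggggaggg
These are matches of letters in a window and say nothing about binding. Which start the thymocytes used was not tested.

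The treatment was checked on 6 genes that glucocorticoids are known to induce, of which limma called 5 higher and the signal to noise statistic all 6, with log2 fold changes of 0.73 to 3.73. All 9 markers of double positive thymocytes on the array were well above background on all 8 arrays, and limma called none of them. Without adjustment 3 of these 9 had p under 0.05, against 10.6% of all probes. They went either way, with log2 fold changes of 0.52 for Cd8b, -0.59 for Rag1 and -0.61 for Ptcra. The signal to noise statistic called Ptcra lower and was not computed for Cd8b, which lacks a value on Control 1. For the markers of other cells, limma called 0 of 8 for macrophages, 0 of 5 for B cells, 0 of 4 for stromal and epithelial cells and 0 of 4 for erythroid cells. Without adjustment 1, 0, 1 and 0 had p under 0.05. Pdgfrb, a stromal marker, was called higher by the signal to noise statistic, with a fitted difference of 1.72 (SE 0.43). Its probe was well above background on 2 of the 4 Control and 3 of the 4 Dex arrays. This difference is therefore not read as a fold change. Among the other stromal markers Col1a2 was lower, at -0.76, and Col1a1 and Col3a1 were higher, at 0.57 and 0.68. For each of these the groups overlapped. Over the 9 double positive markers the summed linear intensity was 116500 to 145200 on Control 2 to 4 and 143000 to 150100 on the Dex arrays. Cd8b, the brightest of them, has no value on Control 1, and without it the sum was 57530 to 70660 on the 4 Control arrays and 54080 to 56970 on the Dex arrays. The sum was 4526 to 6189 in Control and 4191 to 8631 in Dex for macrophages. It was 1975 to 4334 and 2001 to 5146 for B cells, 686 to 1105 and 505 to 1429 for stromal cells, and 382 to 1443 and 522 to 2411 for erythroid cells. The part of other cells in the results was not tested.

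**Figure D4:**
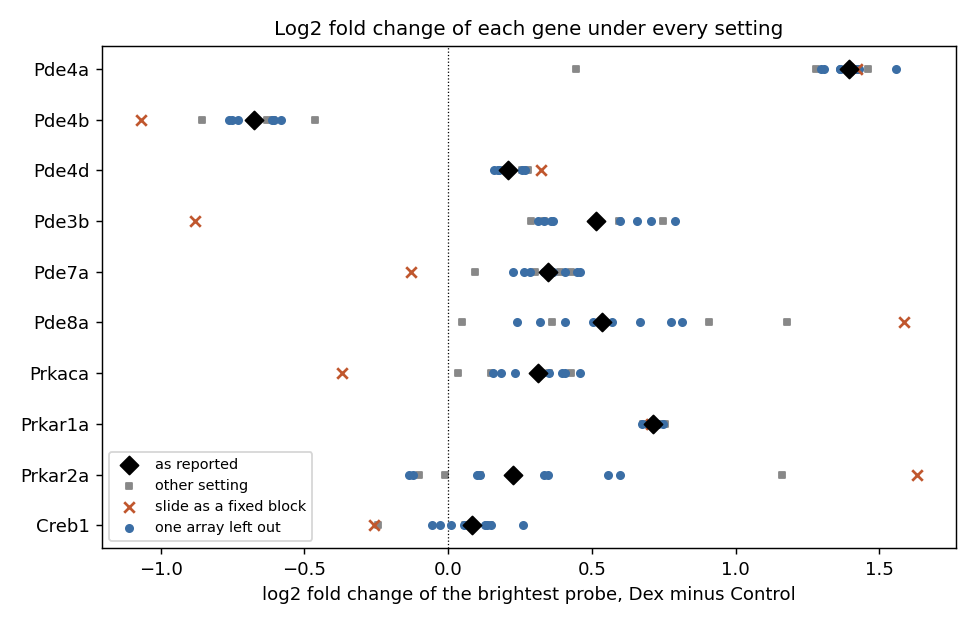
The log2 fold change (Dex minus Control, x axis) of the brightest probe of each gene, as reported (diamond), without 1 array (blue), with the slide as a fixed block (cross) and under the other settings (grey squares). Pde4a, Prkar1a and Pde4d stay above 0 and Pde4b below 0 throughout, whereas Pde3b, Pde7a, Prkaca, Prkar2a and Creb1 have values on either side of 0.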

How the data were processed

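Cy3-labeled RNA of 8 samples was hybridized by the authors to one-color Agilent Whole Rat Genome arrays, and the deposited intensity of each spot came from Feature Extraction (version 9.5.3.1), background subtracted but with no scaling from array to array. Deposited with them were flags (other values, 0 or 1) that mark saturated and outlying spots and those well above background. The authors deposited log2 values too, quantile normalized and summarized by median polish. No value column was left without a sample.

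Here, log2 of the processed intensity of 43379 non-control spots was quantile normalized without outlying spots (16 missing values, 0 saturated spots) and summarized per probe by median polish. limma (version 3.58.1, R version 4.3.3) was run with lmFit and eBayes on all 41012 probes without a block, two-sided, with Benjamini-Hochberg adjustment at 0.05. The signal to noise statistic was called at a one-tailed p of 0.01, pooled over all 70 assignments, and a fold change of 1.2. The study's methods give little detail of how its permutations were drawn, so these calls need not be those of the study. The arrays carry the replicate numbers 1 to 4 in both groups. Deviations from the group means correlated between same-numbered arrays at 0.40, 0.13, 0.55 and 0.18. Arrays of different numbers were not compared in this way and no label gives pairs, so whether the numbers are pairs is not known. The blocked fit is therefore given where it changes a call. Alternatives were 75th percentile scaling, normexp (offset 50), the deposited log2 values, dim probes left out, replicate or slide as a block, and each array left out. The procedures were run on simulated data with independent normal noise of equal spread in both groups. Those data held no slide or replicate structure, so they do not show how the procedures act on these arrays.

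All 10 genes are reported with every probe. Pathway genes were named where limma called them, with others named after their values were seen, as stated there, and the 5 genes most like the member of smallest p by correlation. The brightest probe stands for a gene, and levels are not compared between probes. The genes and lists were chosen with earlier results of these data known. Fold changes are less certain for probes near background, and 4 arrays per group limit the precision. The sources state 3 biological replicates, and all 4 deposited arrays per group were used.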

Additional observations from a re-analysis of the deposited data

Results flagged for a closer look

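Of 28 sets of 4 arrays (14 probes in each group), 2 had an array far from the other 3 by Dixon's ratio of the gap to the range beyond its 95% critical value. Chance flags about 1 in 20 groups. Pde4a on Dex 4, at 5.96 against 5.60 to 5.63 on the other Dex arrays, had a ratio of 0.908. Without Dex 4 the log2 fold change of Pde4a was 1.31, at limma's adjusted p of 0.0796. Pde4d probe A_44_P683068 on Dex 1, at 9.17 against 9.45 to 9.49, had a ratio of 0.885. This Dex array was the one closest to the Control arrays for that probe.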

How the results depend on the processing

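Of 172 log2 fold changes of single genes under the alternatives, 142 kept their direction and side of the threshold, 10 lost the call (Pde4a), 9 gained one and 11 changed sign. The number of probes called higher, 1 as reported, was 0 with 75th percentile scaling, with the replicate block and with the slide as a fixed block, 3 with normexp, without dim probes, with the slide as a random block (whose correlation was -0.24) and without the 3 arrays with fewest detected probes, and 4 by the signal to noise statistic. It was 0 to 1 with each array left out. The number called lower, 0 as reported, was 1 with the slide as a random block, without those 3 arrays and by the signal to noise statistic, and the called pathway genes, 1 as reported, were 8 by the signal to noise statistic and 0 with the replicate block. In settings added after the data were seen they were 0 with 75th percentile scaling and with the slide as a fixed block, 2 with normexp, 7 with the slide as a random block, 14 without the 3 arrays and 0 to 1 with each array left out. The median log2 fold change was 0.17 with normexp and 0.098 with the slide as a fixed block. Pde4a passed in 6 of 16 alternatives with an adjusted p. Changes of sign were Prkar2a at -0.10 (75th percentile), -0.010 (slide as a random block), -0.12 without Dex 3 and -0.14 without Dex 4 (0.60 without Dex 1), with 1.16 without the 3 arrays (adjusted p = 0.0508) and 1.63 with the slide as a fixed block. Creb1 was at -0.056 without Dex 1, -0.028 without Dex 2 (0.26 without Dex 4) and -0.24 without the 3 arrays. With the slide as a fixed block, which compares the pair on slide 1, values were -0.88 for Pde3b, -0.13 for Pde7a, -0.37 for Prkaca and -0.26 for Creb1. Pde8a passed in 1 setting, at 1.18 without the 3 arrays (adjusted p = 0.0378), although no Control array had it well above background. The replicate block changed no call of these genes beyond Pde4a. Over all probes, limma called 319 as reported (231 higher, 88 lower), 166 with 75th percentile scaling (133, 33), 915 with normexp (497, 418), 562 of 28476 without dim probes (388, 174), 81 with the replicate block, 1 with the slide as a fixed block, 1838 with it as a random block, and 4671 without the 3 arrays (2197, 2474), and 96 to 249 with 1 array left out. The cause of these differences was not tested.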
